A study of Homo sapiens with 36 samples.

Results

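The AP-1 transcription factors and their early response companions were followed across every group of the array series. The members were FOS, FOSB, FOSL1, FOSL2, JUN, JUNB, JUND, ATF3, MAFF and EGR1, taken by the gene symbol in the probe annotation, which gave 10 genes of the 20046 with a probe annotated to 1 gene. They were read by 14 probes, of which 12 were tested, having a detection p under 0.01 in every replicate of 1 group or more. The probes left untested were both for ATF3: ILMN_1661109 was detected on 0 of 36 arrays and ILMN_1791346 on 2 of 36. Levels are log2 normalized intensities, so a difference of 1 is a doubling, and the level of one probe cannot be set against that of another.

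The cells were MCF-10A, a non-transformed human mammary epithelial line, measured on 36 Illumina BeadChip arrays in 12 groups of 3 biological replicates. The controls were wild type cells (mock) and shControl, a line with a scrambled short hairpin. The remaining 10 groups each stably carried a lentiviral short hairpin: shATM-1 and shATM-3, shATR-3 and shATR-4, shCHK1-3 and shCHK1-4 (against CHEK1), shCHK2-1 and shCHK2-2 (against CHEK2), and sh53BP1-1 and sh53BP1-2 (against TP53BP1). Every group was grown in MCF-10A medium, harvested 48 hours after 200000 cells were seeded per 10 cm plate, and the labels name no further treatment. The 8 ATM, ATR, CHK1 and CHK2 lines are called the kinase lines here.

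AP-1 is a dimer of a Jun protein (JUN, JUNB, JUND) with a Fos protein (FOS, FOSB, FOSL1, FOSL2) or an ATF protein such as ATF3, and it binds short palindromic DNA sites. FOS, FOSB, JUNB, ATF3 and EGR1 are immediate early genes, switched on within minutes of growth factor or stress signals through ERK, JNK and p38 kinases and the factors they phosphorylate. FOSL1, which encodes FRA-1, rises later and is kept up by sustained ERK signalling. In mammary epithelium it is best known from basal and invasive cells, where it drives proteases such as MMP1 and PLAU. MAFF is a small Maf protein without an activation domain of its own.

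Several facts about the lines bear on every comparison below. TP53BP1 mRNA stood at 16% and 19.8% of shControl in sh53BP1-1 and sh53BP1-2, and ATM mRNA at 53.8% and 48.8% in its lines. CHEK1 mRNA stood at 84.0% and 82.9%, and CHEK2 mRNA at 50.2% in shCHK2-1 but 93.2% in shCHK2-2 (adjusted p = 0.66), while the 3 ATR probes were not detected on any shATR or shControl array. The neighbouring genes MTAP, CDKN2A and CDKN2B, which MCF-10A is known to lack, were detected (by 1 of 1, 2 of 3 and 2 of 3 probes) on 24 of 24 kinase arrays and on 0 of the other 12. A difference between kinase lines and the other groups therefore cannot be told apart from a difference in the cells that carried the hairpins. All 9 basal epithelial markers tested were detected on 36 of 36 arrays, and 4 further basal markers were not analysed here. Of luminal, fibroblast, leukocyte and endothelial markers 5 of 10, 1 of 9, 2 of 8 and 0 of 5 were detected on all arrays. On all 3 arrays of 1 group or more 8 of 10, 4 of 9, 2 of 8 and 2 of 5 were detected. COL1A1, PDGFRA, PTPRC and VWF were among those that were not.

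The promoters of the members show which of them carry letters that AP-1, its ATF relatives or SRF recognise. RefSeq gave 11 entries for 9 members on GRCh38.p14, and the 250 bases before each start were searched on both strands. The letters searched were TGACTCA (the classical AP-1 site), TGACGTCA (the ATF and CREB site), TGACATCA (the variant known from JUN) and the CArG box that SRF binds. None of the 11 entries held TGACTCA, 2 held TGACGTCA, 2 held TGACATCA and 1 held CArG boxes. Of all 35116 promoters read the same way, 4.2% held TGACTCA, 1.65% TGACGTCA, 2.37% TGACATCA and 1.16% a CArG box. The 5 windows with a match are given in full, with the matched letters in capitals, since they belong to members whose levels are compared below.
JUN (chr1:58784048-58784297, minus strand): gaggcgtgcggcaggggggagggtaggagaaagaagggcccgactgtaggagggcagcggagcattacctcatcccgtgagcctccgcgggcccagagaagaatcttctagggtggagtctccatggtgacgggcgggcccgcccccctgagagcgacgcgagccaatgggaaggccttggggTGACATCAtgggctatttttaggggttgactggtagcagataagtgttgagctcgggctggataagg
JUND (chr19:18281623-18281872, minus strand): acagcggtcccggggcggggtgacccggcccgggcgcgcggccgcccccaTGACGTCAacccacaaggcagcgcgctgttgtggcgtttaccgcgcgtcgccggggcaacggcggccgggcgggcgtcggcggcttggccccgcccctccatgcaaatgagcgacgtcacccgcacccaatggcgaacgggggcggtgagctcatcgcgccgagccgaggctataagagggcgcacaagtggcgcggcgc
ATF3 (chr1:212565157-212565406, plus strand): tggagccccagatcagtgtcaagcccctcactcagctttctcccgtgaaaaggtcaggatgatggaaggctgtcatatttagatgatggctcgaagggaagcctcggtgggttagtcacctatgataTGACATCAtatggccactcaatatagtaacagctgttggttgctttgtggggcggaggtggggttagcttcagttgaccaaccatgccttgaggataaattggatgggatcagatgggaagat
MAFF (chr22:38201744-38201993, plus strand): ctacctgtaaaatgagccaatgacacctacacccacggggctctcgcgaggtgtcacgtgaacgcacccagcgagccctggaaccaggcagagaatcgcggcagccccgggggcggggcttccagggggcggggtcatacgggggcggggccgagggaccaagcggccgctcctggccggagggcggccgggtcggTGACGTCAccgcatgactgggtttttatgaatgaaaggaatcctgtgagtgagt
EGR1 (chr5:138465229-138465478, plus strand): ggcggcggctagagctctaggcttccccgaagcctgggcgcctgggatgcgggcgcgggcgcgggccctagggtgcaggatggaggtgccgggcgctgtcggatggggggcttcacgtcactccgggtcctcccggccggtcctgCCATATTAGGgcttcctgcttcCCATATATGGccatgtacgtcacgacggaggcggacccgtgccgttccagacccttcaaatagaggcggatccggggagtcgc
The match lies 67 to 60 bases before the start in JUN, 200 to 193 in JUND, 123 to 116 in ATF3 and 54 to 47 in MAFF. The CArG boxes of EGR1 lie at 105 to 96 and 83 to 74 bases. The windows of FOS, FOSB, FOSL2 and JUNB held none of these letters, and the ATF3 and MAFF genes each had a further start with none. FOSL1 had no entry and was not searched. Bases further upstream than 250 were not searched for any member. A match in letters is a description of the sequence and does not show binding in these cells.

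All 12 member probes differed among the 12 groups, as did 90.8% of all probes tested, so a difference as such sets no member apart. Within a single hairpin line 27.8% to 35.9% of all probes were called higher than shControl and 24.6% to 30.6% lower. Against wild type these shares were 20.9% to 33.7% and 21.9% to 30.1%. Apart from the counts by target, the share of all probes called in only part of the lines was not counted. Such counts below therefore set no member apart. The members differed in size. The range of the 12 group means was 3.40 for FOSB, 2.94 for FOSL1 and 2.27 for ATF3, against 1.71 for FOS, 1.38 for JUN, 1.13 for JUNB, 1.06 for JUND, 0.62 for FOSL2 and 0.61 for EGR1. The median probe of the array had a range of 1.03 with a residual SD of 0.18. JUND was the most tightly measured member (residual SD 0.07), and FOSB and ATF3 the least (0.35 each).

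**Figure D1:**
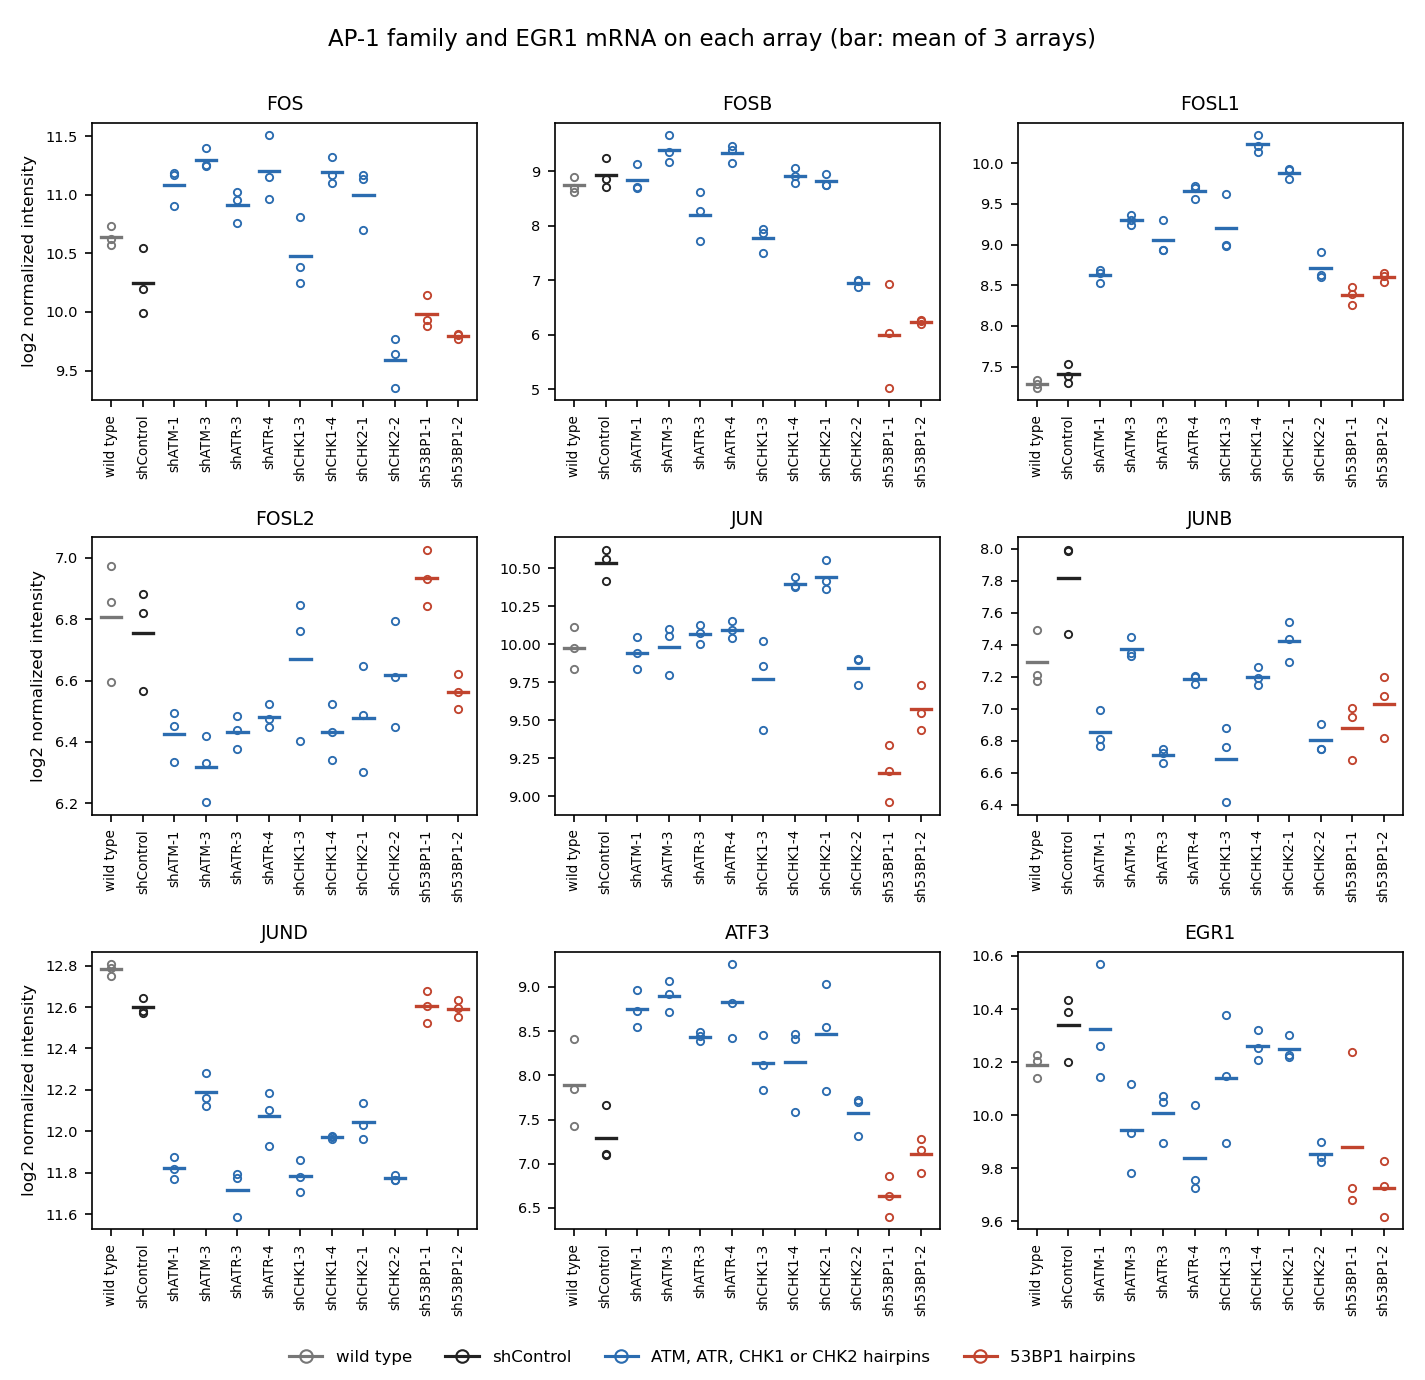
Log2 normalized intensity (y axis, own scale in each panel) of 9 members on every array, by group (x axis). Open circles are single arrays and bars the mean of 3. FOSL1 is above both controls in all 10 hairpin lines, JUND is below both controls in all 8 kinase lines, and FOSB is lowest in the 2 sh53BP1 lines.

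FOSL1 was higher in all 10 hairpin lines than in either control. Its arrays read 7.24, 7.29 and 7.34 in wild type and 7.30, 7.54 and 7.39 in shControl. They read 8.53, 8.65 and 8.69 in shATM-1 and 9.30, 9.37 and 9.24 in shATM-3. No array of a hairpin line overlapped a control array, and the share of all probes without such overlap was not counted. The shATR-3 arrays read 8.94, 9.30 and 8.94, and those of shATR-4 9.56, 9.70 and 9.72. The shCHK1-3 arrays read 8.99, 9.62 and 9.0, and those of shCHK1-4, the highest of all groups, 10.13, 10.21 and 10.34. The CHK2 lines stood apart from each other, with 9.80, 9.92 and 9.92 in shCHK2-1 and 8.91, 8.63 and 8.61 in shCHK2-2. The sh53BP1-1 arrays read 8.25, 8.40 and 8.48, and those of sh53BP1-2 8.65, 8.54 and 8.62, the latter overlapping shATM-1 (difference 0.02, adjusted p = 0.902).

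Against shControl the increase in FOSL1 ran from 0.97 on the log2 scale in sh53BP1-1 (SE 0.12, 1.96-fold, limma adjusted p = 1.15e-07) to 2.82 in shCHK1-4 (SE 0.12, 7.07-fold, adjusted p = 3.44e-18). Against wild type it ran from 1.09 in sh53BP1-1 to 2.94 in shCHK1-4. The scrambled line and wild type did not differ by the test (0.12, adjusted p = 0.55). Of all probes tested, 8.19% rose in all 10 lines against shControl, 4.74% against wild type and 3.13% against both, and FOSL1 was the 1 member probe of 12 in the last class. Each of these FOSL1 calls held with any 1 array left out and under every other processing tried.

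FOS, the founding member of its family, rose in 6 of 8 kinase lines against shControl and in 4 of 8 against wild type, and fell in shCHK2-2 against both. It read 10.62, 10.73 and 10.57 in wild type and 10.20, 10.55 and 9.99 in shControl, which did not differ by the test (-0.40, adjusted p = 0.059; -0.55 and 0.0156 without shControl replicate 2). Against shControl it rose in 6 of the 10 lines, by 0.67 in shATR-3 to 1.05 in shATM-3 (2.07-fold, SE 0.15), and under median scaling the shATR-3 value was 1.03. Against wild type it rose in shATM-1 (0.44), shATM-3 (0.66), shATR-4 (0.56) and shCHK1-4 (0.56). The shATM-1 rise became 0.39 (adjusted p = 0.0559) without its replicate 3, and 0.73 under median scaling. It fell in shCHK2-2 (arrays 9.77, 9.64 and 9.36), by 0.66 against shControl and by 1.05 against wild type (SE 0.15, adjusted p = 7.3e-07). The shCHK2-1 arrays, from a hairpin to the same gene, read 10.70, 11.13 and 11.17. In sh53BP1-1 (9.88, 10.14 and 9.93) and sh53BP1-2 (9.77, 9.80 and 9.81) FOS fell by 0.66 and 0.85 against wild type. Against shControl the values were -0.26 (adjusted p = 0.15) and -0.45 (adjusted p = 0.0148), and the second became -0.30 (adjusted p = 0.133) without shControl replicate 2.

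FOSB, the Fos protein closest to FOS in structure, had the widest range of any member and was lowest in the sh53BP1 lines. Its arrays read 8.90, 8.63 and 8.70 in wild type, 8.71, 9.24 and 8.87 in shControl, 5.03, 6.03 and 6.93 in sh53BP1-1, and 6.25, 6.19 and 6.26 in sh53BP1-2. The 6 sh53BP1 arrays lay below every control array, and the first of them was the only array of 36 on which FOSB was not detected. How many of all probes separate these arrays was not counted. Against shControl FOSB fell by 2.95 in sh53BP1-1 (SE 0.26, 7.71-fold, adjusted p = 1.16e-10) and by 2.70 in sh53BP1-2 (6.51-fold, adjusted p = 8.13e-10). In the deposited values, which were not background corrected, the same falls were 1.81 and 1.76, with the cause not tested.

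Among the kinase lines FOSB fell against both controls in shCHK2-2 and shCHK1-3. It read 6.98, 6.88 and 7.0 in shCHK2-2 and 7.93, 7.49 and 7.87 in shCHK1-3, falls of 1.98 and 1.17 against shControl and of 1.79 and 0.98 against wild type. In shATR-3 it read 8.62, 7.73 and 8.27, a fall of 0.73 against shControl (adjusted p = 0.0163). That call was lost without shControl replicate 2 (-0.58, adjusted p = 0.0872) or shATR-3 replicate 2 (-0.49, adjusted p = 0.131). The highest group was shATM-3 (9.66, 9.36 and 9.17), 0.66 above wild type (adjusted p = 0.0393), a call lost without any of 4 single arrays (wild type 2 or 3, shATM-3 1 or 2; 0.52 to 0.68, adjusted p 0.0671 to 0.155).

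FOSL2, which encodes FRA-2, moved little. Its group means lay between 6.32 (shATM-3) and 6.93 (sh53BP1-1), and its arrays between 6.20 and 7.03. It was lower in 6 of 10 lines against each control, by 0.27 to 0.44 against shControl, and higher in none. The calls in shATM-1, shATR-3, shATR-4, shCHK1-4 and shCHK2-1 against shControl each ended without shControl replicate 1 or 2 (values from -0.30 to -0.21), and each without at least 1 array of its own line. With each array scaled to its median instead of quantile normalized, the calls in shATM-3, shATR-4, shCHK1-4 and shCHK2-1 ended too. Against wild type the calls in shATR-4, shCHK1-4 and shCHK2-1 each ended without wild type replicate 2 (-0.24, -0.29 and -0.25). The calls in shATR-4 and shCHK2-1 also ended without wild type replicate 1 (-0.30 and -0.31), and without shATR-4 replicate 3 (-0.31) or shCHK2-1 replicate 1 (-0.24). Median scaling ended the calls against wild type in shATM-3 (-0.28, adjusted p = 0.0841) and shATR-4 (-0.22, adjusted p = 0.178), and made calls in shCHK2-2 (-0.37) and sh53BP1-2 (-0.47). In the deposited values the falls against shControl were smaller, from -0.21 to -0.14, and those in shATR-4 and shCHK2-1 did not pass. The calls made for FOSL1 were all higher and those for FOSL2 all lower.

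JUN, the most studied Jun protein, was higher in shControl than in any other group mean. Its arrays read 9.97, 9.84 and 10.11 in wild type and 10.62, 10.42 and 10.56 in shControl, a rise of 0.56 (SE 0.12, adjusted p = 0.000567). It fell in 8 of the 10 lines against shControl, but against wild type it rose in shCHK1-4 (0.43) and shCHK2-1 (0.47) and fell only in the sh53BP1 lines. The sh53BP1-1 arrays read 9.34, 9.16 and 8.96, a fall of 1.38 against shControl and 0.82 against wild type. The sh53BP1-2 arrays read 9.73, 9.44 and 9.55, a fall of 0.96 and 0.40. Scaling by the array median ended the calls against shControl in shATM-3 (-0.22), shATR-3 (-0.13) and shATR-4 (-0.19), and gave -0.30 in shATM-1.

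JUNB, often a brake on JUN activity, showed the same dependence on the control. It read 7.21, 7.18 and 7.49 in wild type and 7.98, 7.99 and 7.47 in shControl, a rise of 0.52 (adjusted p = 0.00263) although 1 shControl array lay inside the wild type range. With only these 2 groups fitted the adjusted p was 0.0532. It fell in all 10 lines against shControl, by 0.39 in shCHK2-1 to 1.13 in shCHK1-3. Of all genes, 10.8% fell in all 10 lines against shControl, so this sets JUNB apart only in part. Against wild type JUNB fell in 5 of 10 lines, by 0.41 to 0.61. The shCHK2-1 call ended without shControl replicate 1 (-0.31), shControl replicate 2 (-0.30) or shCHK2-1 replicate 3 (-0.33). The sh53BP1-1 call against wild type (-0.41) became -0.31 and ended without wild type replicate 3 or sh53BP1-1 replicate 3. Median scaling ended the calls against shControl in shATM-3 (-0.17) and shCHK2-1 (-0.37). In the deposited values most JUNB differences were over 1.5 times smaller, such as -0.68 in shCHK1-3 against shControl and 0.34 in shControl against wild type.

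JUND, the Jun protein usually present in resting cells, divided the groups without overlap. Its arrays lay between 12.75 and 12.81 in wild type, 12.57 and 12.64 in shControl, and 12.52 and 12.68 in the sh53BP1 lines. In the 24 kinase arrays they lay between 11.59 and 12.28, with a median of 11.90. Every kinase array was below every other array. How many of all probes divide the arrays in this way, or fall in all 8 kinase lines, was not counted. Against shControl JUND fell in 8 of 8 kinase lines, by 0.41 in shATM-3 (SE 0.08, adjusted p = 3.98e-05) to 0.88 in shATR-3 (adjusted p = 2.59e-11), and against wild type by 0.59 to 1.06. In sh53BP1-1 and sh53BP1-2 it stood 0.01 above and 0.00 from shControl (adjusted p = 0.96 and 0.966; SE 0.08). Its fall against wild type in sh53BP1-2 (-0.19, adjusted p = 0.0457) was lost when any 1 array of either group was left out. Median scaling ended the call in shATM-3 against shControl (-0.20, adjusted p = 0.169). It also reduced the values in shATM-1 (-0.47), shATR-3 (-0.49), shATR-4 (-0.34) and shCHK1-3 (-0.54), which still passed. In sh53BP1-1 against wild type it gave -0.32 (adjusted p = 0.0333).

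ATF3, a stress-induced member of the ATF family, was read by 1 detected probe, ILMN_2374865, and rose in most kinase lines against shControl. It read 8.41, 7.84 and 7.43 in wild type and 7.12, 7.10 and 7.67 in shControl, groups that overlapped (-0.60, adjusted p = 0.10). In the ATM lines it read 8.55, 8.96 and 8.73 (shATM-1) and 8.72, 8.92 and 9.06 (shATM-3), rises of 1.45 and 1.61 against shControl (SE 0.27, 2.74-fold and 3.04-fold). It rose in 7 of 8 kinase lines, by 0.84 or more, with arrays of shCHK1-4 overlapping those of shControl. In shCHK2-2 it stood at 0.28 (adjusted p = 0.355). How many of all probes rise in as many kinase lines was not counted. Against wild type the calls were fewer: it rose in shATM-1 (0.85), shATM-3 (1.01) and shATR-4 (0.94), and shATM-1 became 0.62 (adjusted p = 0.0644) without wild type replicate 3.

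In the sh53BP1 lines ATF3 was at its lowest, with 6.63, 6.40 and 6.87 in sh53BP1-1 and 7.28, 6.90 and 7.16 in sh53BP1-2. Against wild type it fell by 1.26 (adjusted p = 0.000244) and 0.78 (adjusted p = 0.0182). The second ended without wild type replicate 1 (-0.52) or sh53BP1-2 replicate 2 (-0.67). The fall of 0.66 in sh53BP1-1 against shControl (adjusted p = 0.0347) ended without shControl replicate 3 (-0.47), sh53BP1-1 replicate 1 (-0.66) or sh53BP1-1 replicate 2 (-0.55). In the deposited values it was -0.37 (adjusted p = 0.0658), and the falls against wild type were -0.77 and -0.51.

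MAFF was read by 3 probes annotated to the same transcript, and they did not move together. ILMN_1680139 read 6.68, 6.55 and 6.25 in wild type, 7.71, 7.79 and 7.86 in shControl, and between 6.35 and 7.01 in the sh53BP1 lines. All 24 kinase arrays lay between 7.22 and 8.16, above wild type and the sh53BP1 lines. The share of all probes that divide the arrays in this way was not counted. By this probe MAFF rose by 1.30 from wild type to shControl (SE 0.15, adjusted p = 9.95e-08), and by 0.88 to 1.56 in 8 of 8 kinase lines against wild type. These rises were 0.76 and 0.48 to 0.94 in the deposited values. The calls against shControl in shATM-1 (-0.42) and shATR-3 (-0.38) ended on leaving out 1 array. The arrays were shControl replicate 3 (-0.38) or shATM-1 replicate 3 (-0.39) for the first, and shControl replicates 2 (-0.37) or 3 (-0.34) or shATR-3 replicates 1 (-0.31) or 3 (-0.28) for the second. Median scaling ended both (-0.34 and -0.30).

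ILMN_1700413 gave the widest differences of the 3 MAFF probes and was not detected on any array of wild type, sh53BP1-1 or sh53BP1-2. A fold against such a group is a bound, for which the dimmest signal detected on each array stands in for the probe's own. In shControl it read 7.60, 7.49 and 7.36, at least 4.68-fold above wild type, and at least 3.96-fold and 4.04-fold above sh53BP1-1 and sh53BP1-2. It was lower in all 10 lines than in shControl, as were 10.8% of all genes. The kinase lines lay between, from 5.02 to 7.04, at least 1.06-fold (shATM-1) to 2.97-fold (shATR-4) above wild type. In the deposited values shControl stood 1.21 above wild type on the log2 scale, where the fit here gave 2.79.

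ILMN_2322375 ran the other way in the sh53BP1 lines, where it had its highest values. It read 7.35, 7.47 and 7.48 in wild type, 8.59, 8.66 and 8.57 in sh53BP1-1 and 8.68, 9.12 and 8.78 in sh53BP1-2. Against wild type it rose by 1.17 and 1.43 (SE 0.13, 2.25-fold and 2.69-fold), and against shControl by 0.89 and 1.15, the former 0.59 under median scaling. By this probe 6 of 8 kinase lines were also called higher than wild type (mean 7.43). The means were 8.36 in shCHK1-3, 8.21 in shATR-3, 8.12 in shATM-1 and 7.96 in shCHK2-2. Against shControl 3 kinase lines were called higher (0.65 in shCHK1-3, 0.49 in shATR-3 and 0.41 in shATM-1) and none lower. Its smaller rises against wild type in shATR-4 (0.31) and shCHK1-4 (0.34) ended without any of 5 single arrays (0.25 to 0.33) and without wild type replicate 1 or shCHK1-4 replicate 2 (0.29 and 0.25). Over the 12 group means the first probe correlated with the second at r = 0.78 and with this one at r = -0.31, as a description over groups that share the same libraries. Wild type had the lowest group mean by all 3 probes. Against wild type they were called higher in 8, 8 and 6 of 8 kinase lines and lower in none. Against shControl, and between kinase and sh53BP1 lines, the probes ran in different directions. No single direction for MAFF can be given in those comparisons.

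**Figure D2:**
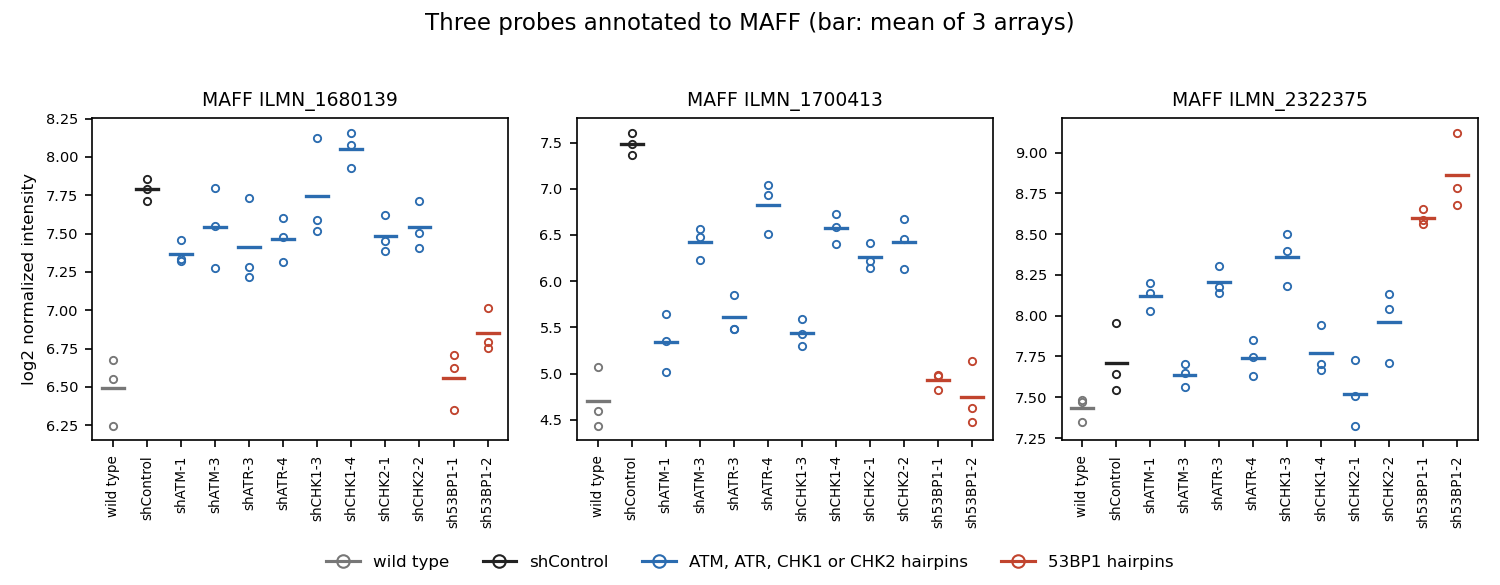
Log2 normalized intensity (y axis, own scale in each panel) of the 3 probes annotated to MAFF on every array, by group (x axis), with open circles for arrays and bars for the mean of 3. The sh53BP1 lines are at the low end for the first 2 probes (means of 4.74 to 6.85) and highest for ILMN_2322375 (means 8.60 and 8.86).

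EGR1, a zinc finger factor induced beside FOS, had the smallest range of group means together with FOSL2. Its arrays lay between 9.62 and 10.57. It fell in 6 of the 10 lines against shControl, by 0.33 in shATR-3 to 0.62 in sh53BP1-2 (adjusted p = 0.00022), and in 3 against wild type (shATR-4, shCHK2-2 and sh53BP1-2, by 0.34 to 0.46). The calls in shATM-3, shATR-3, shATR-4 and shCHK2-2 against shControl ended under median scaling, with values from -0.32 to -0.01. The shATM-3 call also ended without shATM-3 replicate 2 (-0.32), and the shATR-3 call without shControl replicate 1 (-0.29) or 3 (-0.31) or shATR-3 replicate 1 (-0.28). The shATR-4 and shCHK2-2 calls against wild type each ended without any of 4 single arrays (values from -0.34 to -0.29), among them wild type replicates 1 and 2, and under median scaling (-0.13 and -0.20).

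**Figure D3:**
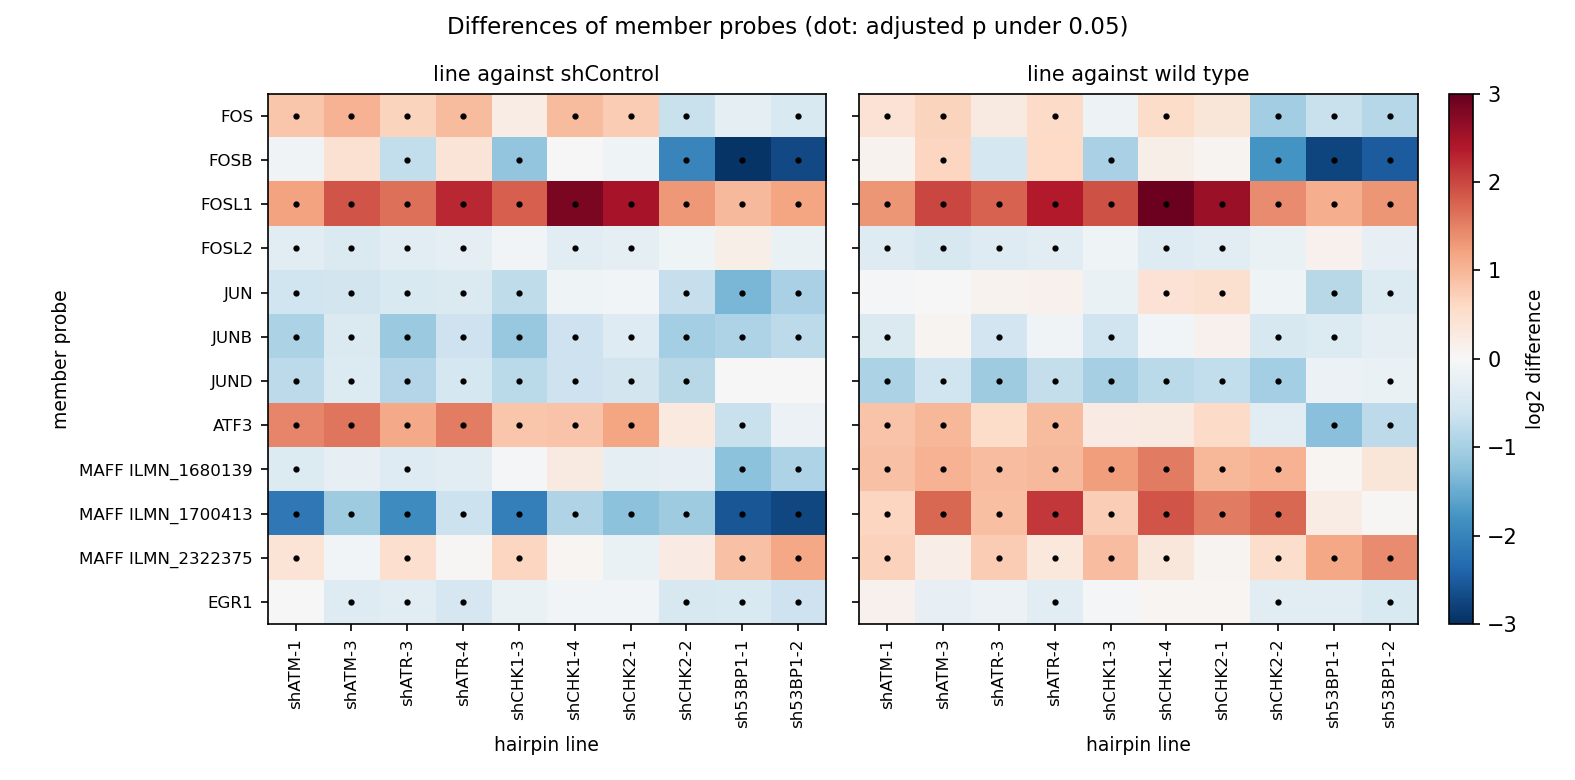
Log2 difference of each of the 12 member probes (rows) in each hairpin line (columns) from shControl on the left and from wild type on the right, with red for higher, blue for lower and a dot where the adjusted p was under 0.05. FOSL1 is the only row that is red and dotted in all 10 lines on both sides, and JUN and MAFF ILMN_1680139 change colour with the control in several lines.

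Counts of members are given by comparison beside the share of all probes. The scrambled line differed from wild type in 4 of 12 member probes, all higher (JUN, JUNB and 2 MAFF probes), against 25.6% of all probes in either direction and 12% higher. The lines of a target were then read together, counting a probe only if each of its 2 lines passed with the same sign. Against shControl 3 member probes were higher and 5 lower in the ATM lines, where 21% of all probes were higher and 19.9% lower, and the count of 8 became 4 under median scaling. In the ATR lines 3 were higher (22.3% of all probes) and 6 lower (21.1%). FOS, FOSL1 and ATF3 were the higher members for both of these targets, and FOSL2, JUN, JUNB, JUND and MAFF ILMN_1700413 were lower in both, with EGR1 added in the ATR lines. The CHK1 lines had 2 higher, FOSL1 and ATF3 (24.6%), and 3 lower (22.1%), and the CHK2 lines 1 higher, FOSL1 (23%), and 3 lower (21.8%). The 3 lower members were JUNB, JUND and MAFF ILMN_1700413 for each of these targets. The sh53BP1 lines had 2 higher, FOSL1 and MAFF ILMN_2322375 (23.9%), and 6 lower (21.7%). In either direction the shares of all probes were 40.9%, 43.3%, 46.8%, 44.7% and 45.6%.

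Against wild type 5 member probes were higher and 2 lower in the ATM lines (18.5% and 18.9% of all probes), and 4 and 2 in the ATR lines (19.4% and 19.8%). The CHK1 lines had 4 and 1 (22.1% and 21.4%), the CHK2 lines 3 and 1 (20.7% each) and the sh53BP1 lines 2 and 4 (17.3% and 18%). FOSL1 was among the higher members of all 5 targets. In either direction the shares were 37.3%, 39.2%, 43.5%, 41.4% and 35.3%. These comparisons share their control arrays. In a single line 52.8% to 66.4% of probes differed from shControl and 42.8% to 63.8% from wild type.

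The kinase lines as a whole differed from the sh53BP1 lines in 11 of 12 member probes, 8 higher and 3 lower, against 72.2% of all probes (37% higher and 35.2% lower). Most of the Fos and ATF side was higher in the kinase lines: FOSB by 2.42 on the log2 scale (SE 0.15, 5.34-fold), ATF3 by 1.53 (SE 0.15, 2.89-fold), FOS by 0.96 (SE 0.09) and FOSL1 by 0.84 (SE 0.07). JUN was higher by 0.71, EGR1 by 0.27, MAFF ILMN_1680139 by 0.87, and ILMN_1700413 at least 1.55-fold. JUND was lower by 0.68 (SE 0.04, adjusted p = 9.27e-15) and MAFF ILMN_2322375 by 0.82, and JUNB stood at 0.08 (adjusted p = 0.352). These are means over the lines, and single lines departed from them. FOS in shCHK2-2 (9.59) lay below sh53BP1-1 (9.98) and sh53BP1-2 (9.79). FOSL1 in shATM-1 and shCHK2-2 stood only 0.02 and 0.11 above sh53BP1-2. ATF3, JUND and 2 MAFF probes separated all 24 kinase arrays from all 6 sh53BP1 arrays, ATF3 narrowly (7.31 against 7.28). The share of all probes that do so was not counted, so this sets no member apart. Under median scaling the values were -0.39 for JUND, -0.48 for MAFF ILMN_2322375 and 0.62 for EGR1. With the deposited values FOSB was higher by 1.49 and MAFF ILMN_1680139 by 0.51. FOSL2 was lower by 0.27 after quantile normalization, with -0.13 in the deposited values, and stood at 0.02 (adjusted p = 0.78) after median scaling. The latter moved the median of all probes by 0.27 in this comparison and the share of higher calls from 51.2% to 75.4%.

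The hairpin lines of one target differed from each other in many members. FOSL1 and JUNB were higher in shATM-3, shATR-4, shCHK1-4 and shCHK2-1 than in the partner line of each, in 4 of 4 pairs. Of all probes, 7.66% were higher and 8.28% lower in all 4 of these pairs. FOSL1 differed by 0.68, 0.61, 1.03 and 1.17 in the ATM, ATR, CHK1 and CHK2 pairs, and JUNB by 0.52, 0.47, 0.51 and 0.62. The JUNB differences were 0.30, 0.26, 0.28 and 0.36 in the deposited values and still passed. FOSB was higher in 3 of the 4 (1.13, 1.15 and 1.86 in the ATR, CHK1 and CHK2 pairs) and JUND in 3 (0.37, 0.35 and 0.27 in the ATM, ATR and CHK2 pairs). Median scaling ended the 3 JUND calls (0.28, 0.15 and 0.10). MAFF ILMN_2322375 was lower in all 4, by 0.48, 0.46, 0.59 and 0.44, and median scaling ended the calls in the ATM, ATR and CHK2 pairs (0.29, 0.41 and 0.35). FOS and JUN differed in 2 pairs, CHK1 and CHK2, and ATF3 only in the CHK2 pair (0.89; 0.61 and adjusted p = 0.0828 without shCHK2-1 replicate 3).

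By pair, 6 member probes differed between the ATM lines, 6 between the ATR lines, 7 between the CHK1 lines and 9 between the CHK2 lines, beside 41.6%, 39.9%, 31.7% and 43.4% of all probes. In shATM-1 against shATM-3, 2 were higher and 4 lower (20.7% and 21% of all probes), in shATR-3 against shATR-4 1 and 5 (20.0% and 19.9%), in shCHK1-3 against shCHK1-4 1 and 6 (14.8% and 16.9%), and in shCHK2-1 against shCHK2-2 8 and 1 (22.1% and 21.3%). Between the sh53BP1 lines 1 member probe differed, JUN, which was 0.42 lower in sh53BP1-1, beside 5.53% of all probes (1.73% higher and 3.80% lower). That call ended without any of 4 arrays (sh53BP1-1 replicates 2 or 3, sh53BP1-2 replicates 1 or 3; -0.43 to -0.32). The order in which the partner lines are set against each other was taken from an earlier view of these arrays, so the repeat over pairs is not independent support.

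**Figure D4:**
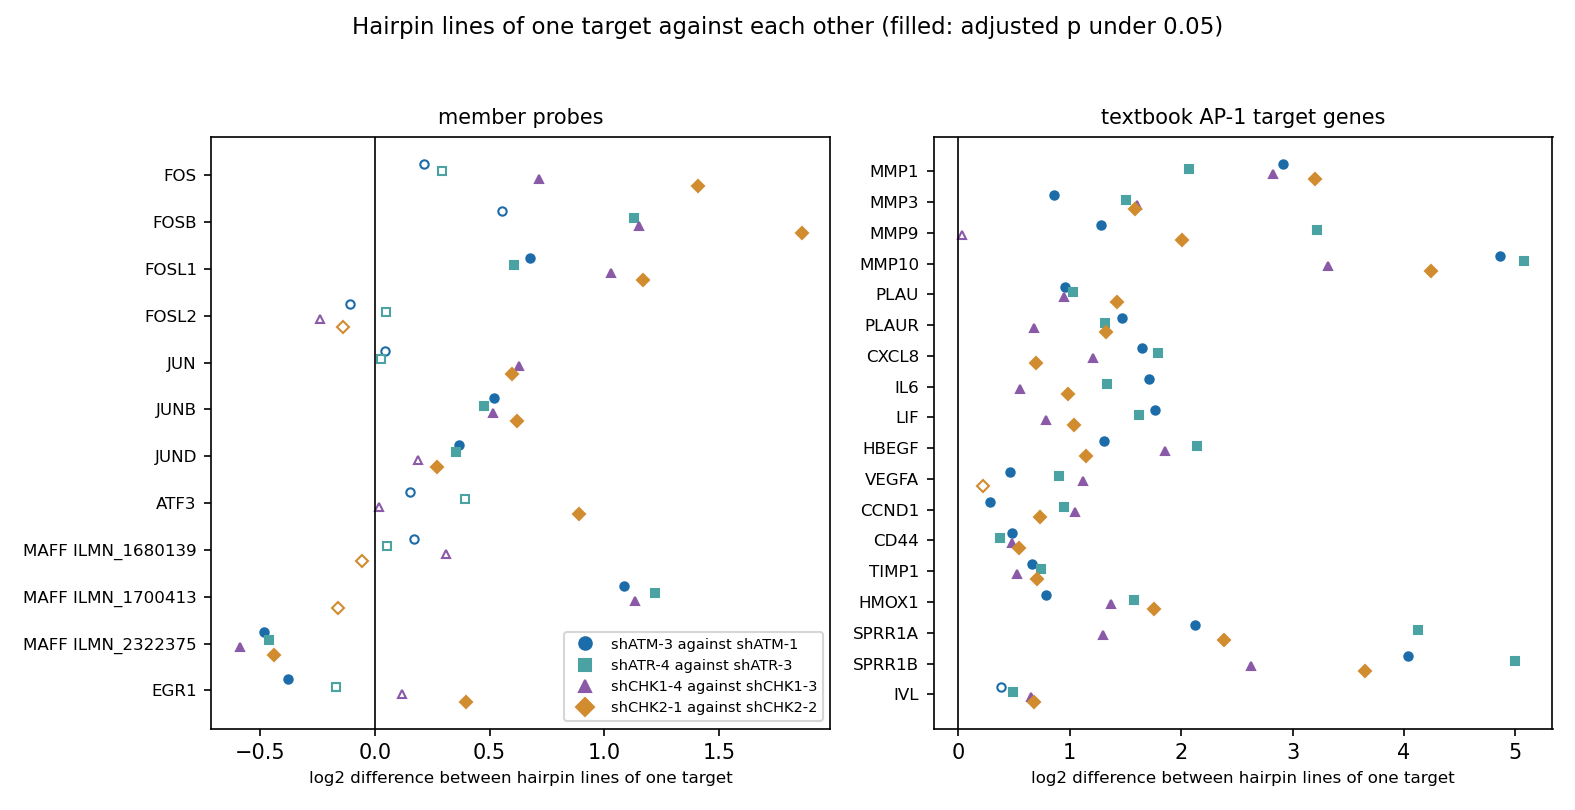
Log2 difference between the hairpin lines of one target (x axis) for the 12 member probes on the left and 18 textbook AP-1 target genes on the right (y axis), with 1 marker for each of 4 pairs, filled where the adjusted p was under 0.05. FOSL1, JUNB and 15 of the 18 target genes are higher in the first-named line of all 4 pairs, and MAFF ILMN_2322375 is lower in all 4. Of all probes 7.66% are higher and 8.28% lower in all 4. The order of the lines was taken from an earlier view of these arrays. MMP3 was not detected in shATR-3, shCHK1-3 or shCHK2-2, HMOX1 not in shATM-1 or shCHK2-2, and IVL not in shATR-3 or shCHK1-3. Their fitted values in those pairs are not measured folds.

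Placed in order by level, few neighbouring groups differed. Of 132 pairs of neighbouring group means, 11 for each member probe, 8 differed by the test, and 14 with the deposited values. Sorting by level puts the closest groups side by side, which by itself makes calls few. The share over all probes was not counted, so these counts set no member apart. The step in FOSL1 lay between shControl and sh53BP1-1 (0.97), and the one in JUND between shATM-3 and sh53BP1-2 (0.40). In FOSB shCHK2-2 stood above sh53BP1-2 by 0.72 (adjusted p = 0.022), and in JUNB shControl stood above shCHK2-1 by 0.39. JUN divided sh53BP1-2 from sh53BP1-1. In MAFF, ILMN_1680139 divided shATM-1 from sh53BP1-2 (0.52), and ILMN_1700413 divided shControl from shATR-4 (0.66) and shCHK2-1 from shATR-3 (0.65). No neighbouring groups differed in FOS, FOSL2, ATF3, EGR1 or MAFF ILMN_2322375. Over all pairs of groups, 52 of 66 differed in FOSL1 and 21 of 66 in FOSL2, again without a share over all probes.

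Members were compared by Pearson's r over the 12 group means, as a description, since all points share libraries and normalization. FOS ran with ATF3 (r = 0.86) and FOSB (r = 0.85), and FOSB with JUN (r = 0.80). Within groups, over the 36 arrays, FOS and FOSB had an r of -0.03. Candidates were genes detected on all 3 arrays of at least 6 groups, with an SD of the 12 group means of at least 0.5. The 3 genes most like FOSL1, among 2024 such candidates, were DPP9 (r = 0.96), RAE1 (r = 0.95) and ETS2 (r = 0.94). For FOSB they were PARP14 (r = 0.95), RND3 (r = 0.95) and HECA (r = 0.94), and for JUND NME3, FIG4 and CKLF (r = 0.99 each). For JUNB they were RNF24, CCPG1 and YPEL5 (r = 0.96 each), for ATF3 DUSP10, SFXN5 and ADAM19 (r = 0.94, 0.93 and 0.93), and for FOS TMX4, UCA1 and ATF3 (r = 0.92, 0.88 and 0.86).

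Other AP-1, Maf and Bach factors were mostly below background. Of 12 on the list 10 had a probe listed and 4 were tested (ATF2, JDP2, MAF and MAFG). MAFG, another small Maf, was lower in all 10 lines than in shControl, by 0.94 on average, and 0.84 higher in shControl than in wild type. Of all genes 10.8% were lower in all 10 lines than in shControl. None of the 4 changed in all 10 lines against wild type.

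Of 27 other immediate early genes 20 were tested, and they moved in both directions. From wild type to shControl 12 rose and 4 fell, with a median of 0.37, where 13.9% of all genes rose and 15.2% fell. Among them KLF2 rose by 1.30, NR4A2 by 1.05 and IER3 by 1.01, and KLF4 fell by 1.02. In the sh53BP1 lines 6 rose and 8 fell against shControl, where 23.8% of all genes rose and 24.7% fell. The listed genes were led by NR4A2 (-2.09), GADD45B (1.87), KLF2 (-1.83) and IER3 (-1.63). Under median scaling 3 of the listed genes rose and 7 fell. The ATM, ATR, CHK1 and CHK2 lines had 6, 7, 8 and 6 risen and 3, 5, 5 and 5 fallen against shControl, with 3 fallen in the ATR lines under median scaling. Of all genes 22.1%, 23%, 24.8% and 22.7% rose and 22.6%, 24%, 25.6% and 24.8% fell in these lines. Against both controls SGK1 rose in all 10 lines, and NR4A2 and RHOB fell, where 3.3% of all genes rose and 5.3% fell. All 14 upstream kinases and SRF cofactors with a listed probe were tested. MAPK3, which encodes ERK1, and MRTFB were lower and ELK1 higher in all 10 lines against both controls. Between kinase and sh53BP1 lines 3 of the 14 were higher and 7 lower with a median of -0.19, where 38% of all genes were higher and 37% lower. Under median scaling 7 were higher and 5 lower with a median of 0.14, so these genes have no settled direction there.

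Textbook AP-1 target genes are proteases, growth factors, cytokines and epidermal differentiation genes whose promoters AP-1 is known to bind. Of 22 on the list 20 had a probe listed and 18 were tested, and 10 were detected on all 36 arrays. In the sh53BP1 lines 0 rose and 14 fell against shControl, with a median of -1.02, where 23.8% of all genes rose and 24.7% fell. CXCL8, a neutrophil chemokine, fell by 6.52 in sh53BP1-1 and 6.16 in sh53BP1-2. IL6, an inflammatory cytokine, was not detected in either line and was at least 56.5-fold and 57.5-fold lower. HBEGF, an EGF receptor ligand, fell by 2.89 and 2.56, and PLAU, the urokinase protease, fell by 3.18 in sh53BP1-1 and fell by 2.03 in sh53BP1-2.

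The target genes also differed between the controls. From wild type to shControl 11 of the 18 target genes rose and 2 fell, with a median of 0.46. Of all genes 13.9% rose and 15.2% fell. IL6 rose by 4.32, CXCL8 by 3.98 and HBEGF by 1.05, while MMP9, a gelatinase, fell by 2.49. Against wild type 0 rose and 12 fell in the sh53BP1 lines, with a median of -1.26, where 17.4% of all genes rose and 20.8% fell. FOSL1 rose in the same lines against both controls. In all 10 lines VEGFA, the vascular growth factor, was lower than in both controls, as were 5.3% of all genes.

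Against shControl the kinase lines showed no common direction over the target genes. In the ATM lines 5 rose and 5 fell, in the ATR lines 5 and 3, in the CHK1 lines 5 and 7 (5 and 4 under median scaling), and in the CHK2 lines 3 and 7. Of all genes 22.1%, 23%, 24.8% and 22.7% rose and 22.6%, 24%, 25.6% and 24.8% fell in these lines. Against wild type the counts were 6 and 3, 6 and 1, 6 and 3, and 7 and 5. There 19.4%, 20.3%, 22.4% and 20.8% of all genes rose and 21.4%, 22.6%, 24.6% and 23.7% fell. MMP1, the interstitial collagenase, was detected on 0 of 3 wild type, 1 of 3 shControl and 0 of 6 sh53BP1 arrays but on all 24 kinase arrays. Its group means there ran from 9.59 (shCHK2-2) to 13.50 (shCHK1-4), at least 20.1-fold to 302-fold above wild type. Set against the sh53BP1 lines, the kinase lines had 15 target genes higher and 2 lower (SPRR1A and SPRR1B), with a median of 0.98. Of all genes 38% were higher and 37% lower in this comparison. MMP1 was at least 77.1-fold higher there, PLAU higher by 4.40 and CXCL8 by 4.79.

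The target genes divided the hairpin lines of one target in the same order as FOSL1. That order was taken from an earlier view of these arrays, and the list was chosen with earlier results known. The shared order is therefore a description and not independent support. All that passed the test in the ATM, ATR and CHK1 pairs were lower in shATM-1 (17 of 18), shATR-3 (18) and shCHK1-3 (17) than in the partner line, where 24%, 23.8% and 19.9% of all genes were. In the CHK2 pair 17 were higher in shCHK2-1 than in shCHK2-2, beside 25.8% of all genes. MMP10, a stromelysin, differed by 4.87, 5.08, 3.32 and 4.24 in the ATM, ATR, CHK1 and CHK2 pairs, and was detected on 1 of 3 shCHK2-2 arrays. SPRR1B, a precursor of the cornified envelope, differed by 4.04, 5.00, 2.63 and 3.65. HMOX1 was not detected in shATM-1 or shCHK2-2 and was at least 1.41-fold and 2.00-fold higher in the partner lines. IVL was not detected in shATR-3 or shCHK1-3 and was at least 1.12-fold and 1.01-fold higher in their partners. Of the 18 genes 15 were higher in all 4 pairs and the other 3 (MMP9, VEGFA and IVL) in 3. Of all probes 7.66% were higher in all 4 pairs. The counts of 17, 18, 17 and 17 became 15 to 17 under the deposited values and median scaling, and 16 to 18 with any 1 array left out. Between the sh53BP1 lines 6 were lower in sh53BP1-1 and 0 higher, beside 4.49% and 2% of all genes. The count of 6 became 2 to 5 with 1 array left out.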

How the data were processed

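Total RNA of 36 MCF-10A cultures in 12 groups of 3 was labelled as biotinylated cRNA and hybridised to Illumina BeadChips, per the labels' protocols. The authors deposited an unnormalized mean intensity and a detection p-value per probe, per the file headers. They also deposited a value table on the log2 scale, which differed from quantile-normalized log2 intensities by at most 0.0013 and was used as an alternative.

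Here the intensities of 47231 probes went through limma's neqc (offset 16, limma 3.58.1, R 4.3.3), which corrects background from negative controls, inferred here from the detection p, then quantile normalizes and takes log2. Mean intensity was 460 to 677 per array, with 33.5% to 38.3% of probes detected, and the number of arrays limits the precision. Testing was limited to the 18905 probes with a detection p under 0.01 in every replicate of 1 group or more. One limma fit of 12 group means gave each difference, with Benjamini-Hochberg adjustment within each comparison and a threshold of 0.05. The labels call the 3 arrays of a group biological replicates. They do not say that a replicate number is shared between groups, and residuals of same-numbered arrays correlated at -0.00183, so no block was used. No batch was tested, since the sources used here give neither slide nor scan date. Arrays were not identical (highest correlation 0.995). Of the probes 30113 are annotated to 1 gene, 8 to several and 17110 to none, so genes on the latter are unnamed here.

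A bound ("at least") was the bright group's mean over the mean, per array, of the higher of the probe's own level and the lowest detected signal. Lists were counted with 1 probe a gene, the one with the highest mean. All members are named, with the 3 genes most like each by Pearson's r (likeness given for the members described), up to 4 called genes of a list and comparison with the largest mean change, and the targeted genes as a label check. Other genes named were chosen after their values were seen. The members and lists were chosen with earlier results of these data known. The alternatives were the deposited log2 values, median scaling, no filter, a replicate block, only the groups compared, 1 probe a gene, and each array left out. The fit was tested on simulated data. Promoters came from RefSeq (GRCh38.p14). Figures used Python 3.11.15 and matplotlib 3.10.9.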

Additional observations from a re-analysis of the deposited data

Results flagged for a closer look

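The 2 hairpin lines of one target are repeats of one contrast, and the members below differed between them by the test of that difference (limma, adjusted p under 0.05). Values are log2 differences of the first-named line from the second.

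Between shATM-1 and shATM-3 the differences were -0.68 for FOSL1, -0.52 for JUNB, -0.37 for JUND, -1.09 for MAFF ILMN_1700413, 0.48 for MAFF ILMN_2322375 and 0.38 for EGR1. The EGR1 value became 0.26 without shATM-1 replicate 1 and 0.30 without shATM-3 replicate 2, and no longer passed. It did not pass under median scaling (0.34, adjusted p = 0.164) or with only the groups compared (adjusted p = 0.0627).

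Between shATR-3 and shATR-4 they were -1.13 for FOSB, -0.61 for FOSL1, -0.47 for JUNB, -0.35 for JUND, -1.22 for MAFF ILMN_1700413 and 0.46 for MAFF ILMN_2322375.

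Between shCHK1-3 and shCHK1-4 they were -0.72 for FOS, -1.15 for FOSB, -1.03 for FOSL1, -0.63 for JUN, -0.51 for JUNB, -1.13 for MAFF ILMN_1700413 and 0.59 for MAFF ILMN_2322375.

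Between shCHK2-1 and shCHK2-2 they were 1.41 for FOS, 1.86 for FOSB, 1.17 for FOSL1, 0.60 for JUN, 0.62 for JUNB, 0.27 for JUND, 0.89 for ATF3, -0.44 for MAFF ILMN_2322375 and 0.40 for EGR1. The EGR1 difference did not pass under median scaling (0.36, adjusted p = 0.144). CHEK2 mRNA itself stood at 50.2% of shControl in shCHK2-1 and 93.2% in shCHK2-2, and its part in these differences was not tested.

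Between sh53BP1-1 and sh53BP1-2 JUN differed by -0.42.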

How the results depend on the processing

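With each array scaled to its median, member probes called in the ATM lines against shControl fell from 8 to 4, and FOSL2 between kinase and sh53BP1 lines went from -0.27 to 0.024 (adjusted p = 0.78). With no filter, 1 probe a gene or only the groups compared, the count between the sh53BP1 lines went from 1 to 0, 2 and 0. With 1 probe a gene the counts against wild type went from 5 to 3 (CHK1) and from 4 to 2 (CHK2), since 2 MAFF probes were then left out. With the deposited values the neighbouring groups that differed went from 8 to 14, and the cause was not tested.

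With each array left out in turn, counts of member probes ranged from 4 to 5 for shControl against wild type and stayed at 12 for any difference. Against shControl they ranged from 7 to 8 (ATM), 7 to 9 (ATR), 5 to 6 (CHK1), 3 to 4 (CHK2) and 8 to 8 (sh53BP1). Against wild type they ranged from 6 to 7, 4 to 6, 4 to 5, 4 to 5 and 5 to 8. Between hairpins they ranged from 5 to 6, 6 to 6, 7 to 10, 8 to 9 and 0 to 1. They stayed at 11 for kinase against sh53BP1 lines, and the neighbouring groups that differed ranged from 7 to 13.

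Of 324 single member values, 307 kept direction and side of the threshold with the deposited values, 275 with median scaling, 312 without the filter and 307 with only the groups compared. With the replicate number as a block 320 did. The block ended 1 call, FOSL2 in shATR-4 against shControl (adjusted p = 0.0518), and the numbers do not pair the samples. With 1 array left out 2130 of 2232 did. Median scaling also lowered the share of higher calls in sh53BP1-1 and sh53BP1-2 against shControl from 52.7% to 31.3% and from 52.6% to 37.2%, and against wild type from 49.5% to 22.7% and from 48.9% to 27.8%. It raised that share in shATM-3 and shATR-4 against shControl from 53.6% to 72.5% and from 53.6% to 65.8%, and against wild type from 51% to 71.5% and from 51.6% to 64.2%. It moved the ATM pair from 49.6% to 36.3% and the sh53BP1 pair from 31.4% to 12.4%. Signal near background limits FOSB in sh53BP1-1, MAFF ILMN_1700413 and the ATF3 probes that were not tested.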
